A study of Bos taurus with 9 samples.

Results

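The sense overlapping lncRNAs described here are long noncoding transcripts that the study assembled from its reads and that lie within or across a gene with a symbol, their host. Each is named after the host with the ending OT and a number, so that PILRA-OT1 overlaps PILRA. Of the 2257 lncRNAs with deposited values, 845 were assembled sense overlapping transcripts, and 659 of these had a host with a symbol. The set holds 618 of them, at 527 hosts. It was chosen by measured values, since a mean over the 9 libraries of 10 FPKM or less was required, which left out 14 transcripts. FPKM is the number of sequenced fragments per kilobase of transcript, scaled to the mapped fragments of the library. Another 26 were left out by host gene (RUNX1, KHSRP, HOXB3, PLXNB2, PPP6R2, RNF5, SPTBN4, STRIP2, AQP9, MGAT5B, TMEM168 and histone genes of the H2AC and H4C families), and 1 because it lay on an unplaced scaffold. Several of these hosts had stood out between time points in earlier results of these data, so the counts of changed members below describe what was left after that choice.

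The cells were MAC-T, an immortalized bovine mammary epithelial line. The control group (0 h) was collected untreated, and the other cells were collected 6 and 12 h after LPS was added at 50 ng/μL. These groups are called 6 hpi and 12 hpi, where the study writes hpi for post-infection. LPS, from the outer membrane of Gram-negative bacteria, is recognised by TLR4. Each time point had 3 libraries, described as biological replicates, and was a culture plate of its own. Plate and hours of LPS therefore cannot be told apart. The sources used here do not say whether the replicates were wells of that plate, and p-values then measure only the spread between these libraries. In bulk RNA, fewer cells with a transcript and less of it per cell cannot be told apart either.

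A lncRNA is a transcript longer than short regulatory RNAs that carries no recognised protein-coding frame. Sense overlapping lncRNAs are read from the same strand as their host gene and can hold its introns, exons or both, and some are known to act on the host gene's own transcription, splicing or chromatin. Because they share sequence with the host's pre-mRNA and with each other, short reads from the shared parts can be given to 1 transcript or another by the program that estimates their levels. The values used here hold lncRNAs and not the mRNAs of the hosts, so the part of host RNA in these values was not tested, and the epithelial identity of the cells could not be checked on mRNA. A short list of defining markers of mammary epithelium (keratins, adhesion molecules and a casein among them), fibroblasts and leukocytes held the host of 0 of the 618 members. Other genes known from such cells are among the hosts, such as CD37, PILRA and TNFRSF17 of leukocytes and COL14A1, a collagen gene.

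The only member found in the study's table of quantitative PCR primers was UBE3D-OT1, which overlaps the gene of a ubiquitin ligase on chromosome 9. The pair is shown because it marks the stretch of this transcript that was chosen for amplification, 5′ to 3′.
UBE3D-OT1 forward: taccaggctcctccatccat
UBE3D-OT1 reverse: cgactcccttggctacatc
By the deposited values UBE3D-OT1 had 0.167, 2.77 and 0.0236 FPKM in 0 h replicates 1, 2 and 3. It was listed at 0, 0 and 0.178 FPKM at 6 hpi and at 0, 0.00422 and 0 FPKM at 12 hpi. A single 0 h library held most of its signal, and the other 8 libraries were all at or below 0.178 FPKM. It exceeded 0.5 FPKM in 1 library, too few for the test used here. The study designed such primers for lncRNAs it had called differentially expressed, and it reported similar patterns by quantitative PCR and sequencing.

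The libraries were alike in how much of their signal fell on the members, apart from the share. The FPKM summed over the 618 members lay between 662 and 747 in the 9 libraries. As a share of all lncRNA FPKM this was 13.9% to 16.8% in 7 libraries, 9.77% in 12 hpi replicate 1 and 3.38% in 0 h replicate 2, where a single lncRNA that is not a member held 79.9% of the total. Between 564 and 590 members were above 0 in a library. Across the 520 members with enough signal for the test, Pearson's r of log2(FPKM + 0.1) was 0.486 to 0.604 within time points and 0.4 to 0.629 between them. The points are transcripts of the same libraries and are not independent of each other. Among the 0 h libraries, replicate 3 stood nearest to those of LPS-treated cells (r from 0.577 to 0.629), while replicates 1 and 2 had r from 0.4 to 0.535 with them. In the study's sequencing summary, 0 h replicates 1 and 2 also had the lowest mapped ratios and the lowest shares of high-quality bases. All untreated libraries had more mapped reads than any library of LPS-treated cells. Depth and LPS therefore cannot be told apart, and the bearing of quality on the values was not tested. The number of fragments behind an FPKM is unknown, so values carry no counting interval.

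Most members were scarce in MAC-T cells, and the few abundant ones were also the steadiest. The mean over the 9 libraries had a median of 0.716 FPKM (quartiles 0.487 and 1.17) and ran from 0.173 to 9.29 FPKM. Of the 618 members, 417 had a mean under 1 FPKM and 21 had a mean of at least 5 FPKM. By comparison, the median was 0.657 FPKM for assembled sense lncRNAs of hosts without a symbol, 0.663 for antisense, 0.62 for intergenic and 1.02 for annotated lncRNAs. In every member the highest of the 3 time point means was above 0.5 FPKM, the lowest of them being 0.503. The set as deposited thus depended on the level at single time points.

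The 6 members with the highest means overlap genes of membrane fusion, RNA decay, DNA repair, dephosphorylation and chromatin. VTI1A-OT1, at the gene of a SNARE protein of vesicle fusion, had 8.59 ± 0.173 FPKM at 0 h, 10.2 ± 1.42 at 6 hpi and 9.11 ± 0.884 at 12 hpi (SD, n = 3). NBDY-OT1 overlaps the gene of NoBody, a microprotein that binds mRNA decapping factors, and had 8.63 ± 0.51, 8.82 ± 0.878 and 9.1 ± 0.918 FPKM at the 3 time points (SD, n = 3). These transcripts had nearly the same level in all 9 libraries, with coefficients of variation of 11.8% and 8.07%. INIP-OT1, at the gene of a subunit of the SOSS complex that binds single-stranded DNA, had 10.5 ± 1.83 FPKM at 0 h, 7.93 ± 0.623 at 6 hpi and 7.19 ± 0.401 at 12 hpi (SD, n = 3). PPP6R3-OT1, at a regulatory subunit of protein phosphatase 6, had 9.11 ± 0.538, 8.92 ± 0.976 and 6.96 ± 0.456 FPKM (SD, n = 3). The 12 hpi libraries were the lowest 3 of 9 for PPP6R3-OT1, and for INIP-OT1 the 0 h range did not overlap 12 hpi either, but none of these differences reached the fold change required below. ZXDC-OT1, at a zinc finger gene known to work with CIITA on MHC class II genes, averaged 7.83 FPKM, and ZZZ3-OT1, at a subunit of the ATAC histone acetyltransferase complex, averaged 7.48 FPKM.

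At the limit of a mean of 10 FPKM, VTI1A-OT1 (9.29), NBDY-OT1 (8.85) and INIP-OT1 (8.55) were the nearest inside. The nearest transcripts outside were UBL5-OT1 (just above 10), TMEM167A-OT1 (10.1) and SVBP-OT1 (10.7 FPKM). UBL5-OT1 shows how a mean can hide its parts, since it had 17.1, 28.2, 22.5 and 21.8 FPKM in 4 libraries and at most 0.245 FPKM in the other 5. The third steady member by coefficient of variation, among those with a mean of at least 1 FPKM, was MARK1-OT1, which overlaps a microtubule affinity-regulating kinase gene. It had 1.6 ± 0.188 FPKM at 0 h, 1.38 ± 0.0708 at 6 hpi and 1.78 ± 0.0507 at 12 hpi (SD, n = 3), a coefficient of variation of 12.6% over the 9 libraries.

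**Figure D1:**
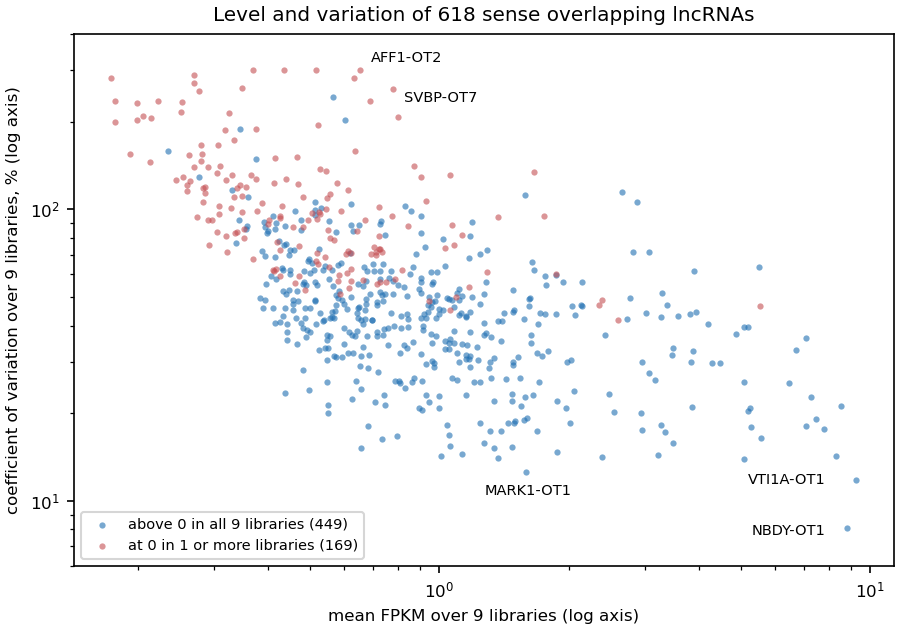
Mean FPKM over the 9 libraries (log axis) against the coefficient of variation in % (log axis) for each of the 618 members, with those above 0 in all 9 libraries in blue (449) and the others in red (169). Variation falls as level rises, from NBDY-OT1 at 8.07% to AFF1-OT2, which had signal in 1 library only.

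The spread between libraries was largest at low levels. The median coefficient of variation was 20.9% for the 21 members with a mean of at least 5 FPKM, 37.4% for the 47 from 2 to under 5 FPKM and 36.1% for the 133 from 1 to under 2 FPKM. It was 50.9% for the 252 members from 0.5 to under 1 FPKM and 88% for the 165 below 0.5 FPKM. The same order held for detection, since 20 of the 21 most abundant members and 74 of the 165 scarcest were above 0 in every library.

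The members spanned 377 to 336354 bp of the genome, with a median of 10100 bp (quartiles 4290 and 28700 bp). Antisense and intergenic lncRNAs had median spans of 8580 and 6110 bp. They lay on 30 chromosomes of ARS-UCD1.2, the build of the deposited coordinates, most often on chromosomes 3 (43 members) and 5 (36 members). As a share of the lncRNAs of a chromosome they were most frequent on 17 (46.9%) and least frequent on 24 (15.2%). Of the 527 hosts, 519 were found by symbol and 6 by an older symbol in RefSeq's annotation of another assembly, ARS-UCD2.0, and all 525 were protein-coding there. In that annotation 20 pairs of hosts were next to each other, among them COL4A1 and COL4A2 (collagen IV chains of the basement membrane), PSPC1 and ZMYM5, and SVBP and TMEM269.

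Of the members, 22 overlapped a member of another host, 62 an antisense lncRNA and 11 an intergenic one, and 99 overlapped another lncRNA locus of any class. SYNJ2BP-OT1 (chr10:81998566-82020581), at the gene of an outer mitochondrial membrane protein, lay wholly inside COX16-OT1 (chr10:81981344-82023858), at the gene of a cytochrome c oxidase assembly factor. SYNJ2BP-OT1 fell between 0 h and 12 hpi, from 1.11, 1.08 and 0.699 FPKM to 0.194, 0.654 and 0.341 FPKM (log2 fold change −1.19, adjusted p = 0.247 from limma). COX16-OT1 rose between 6 and 12 hpi, from 0.139, 0.337 and 0.157 FPKM to 0.84, 0.704 and 0.642 FPKM (log2 fold change 1.46, adjusted p = 0.591 from limma). This pair was chosen after its values were seen. For both transcripts the groups compared did not overlap.

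Differences between time points were tested with limma on log2(FPKM + 0.1) over all lncRNAs with more than 0.5 FPKM in at least 3 of the 9 libraries. This left 520 of the 618 members, at 453 hosts, among 1948 lncRNAs in all. The 98 members not tested had means of up to 0.781 FPKM, with a median of 0.341, and 68 of them were at 0 in at least 1 library. A member is said to have risen or fallen when the absolute log2 fold change was above 1 and the unadjusted p under 0.05, which are the study's thresholds, and adjusted p-values are Benjamini-Hochberg values over all 1948 lncRNAs. Of the tested members, 6 had passed the filter through 1 time point alone, and 5 of these, CFAP91-OT1, CYS1-OT3, RHBDL2-OT1, SCMH1-OT1 and SEC14L1-OT1, changed in at least 1 comparison. A transcript that passes through its high group alone had to differ, so these 5 are given as a description, with no p. They are among the counts of members past the thresholds, and the counts without such transcripts are given beside them. Among members named below, TUBA4A-OT1, TYK2-OT1 and NPC1-OT1 had only a single library above 0.5 FPKM outside their high group. CRCP-OT1, CYTH1-OT1, GBA2-OT5 and ARHGEF10-OT1 had no untreated library above that level. Likewise, PILRA-OT1, SPATA2-OT1, DAP-OT2, TMEM236-OT2 and COX16-OT1 had no library above it in the lower group of the comparisons given for them. The p-values of these members therefore depend on the filter too and are no separate support for a change.

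At 6 hpi, 10 members had risen and 10 had fallen against 0 h. The shares over all tested lncRNAs were 3.75% higher and 2.31% lower, against 1.92% and 1.92% of the members. At 12 hpi, 19 members had risen and 13 had fallen against 0 h (3.65% and 2.5%), where all lncRNAs had 6.37% and 3.23%. Between 6 and 12 hpi, 12 rose and 9 fell (2.31% and 1.73%), where all lncRNAs had 3.49% and 1.9%. In all 3 comparisons the members' shares lay under those of all lncRNAs, but several hosts that had stood out earlier were left out of the members. Without the lncRNAs that were above 0.5 FPKM at 1 time point alone, a choice made after seeing the data, 514 members and 1921 lncRNAs in all were left. Then 9 members were higher and 9 lower at 6 hpi (1.75% each, against 3.54% and 2.08% of all lncRNAs). At 12 hpi it was 17 and 12 (3.31% and 2.33%, against 5.88% and 3.12%). Between 6 and 12 hpi it was 10 and 7 (1.95% and 1.36%, against 2.92% and 1.72%). Over the 558 tested sense lncRNAs with symbols, the excluded hosts included, the shares were 2.69% and 2.33% at 6 hpi, 5.2% and 2.51% at 12 hpi and 3.05% and 2.15% between 6 and 12 hpi. In this wider group the share lower was not under that of all lncRNAs at 6 hpi (2.31%) or between 6 and 12 hpi (1.9%).

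With an adjusted p under 0.05 from limma, 0 members and 0% of all lncRNAs passed in each comparison. The smallest adjusted p of a member was 0.323 at 6 hpi, 0.111 at 12 hpi and 0.419 between 6 and 12 hpi. An unadjusted p under 0.05 was found for 32 members at 6 hpi (6.15%, against 9.8% of all lncRNAs), 55 at 12 hpi (10.6%, against 14.2%) and 27 between 6 and 12 hpi (5.19%, against 8.06%). The 3 libraries of each group did not overlap for 65 tested members at 6 hpi (12.5%, against 16.6% of all lncRNAs), for 98 at 12 hpi (18.8%, against 22.6%) and for 64 between 6 and 12 hpi (12.3%, against 15.1%). At 12 hpi, 67 of the 98 were higher than at 0 h, a split that was not counted over all lncRNAs. By the thresholds all lncRNAs leaned the same way at that time, with 6.37% higher and 3.23% lower. The median log2 fold change of the tested members was 0 at 6 hpi, 0.11 at 12 hpi and 0.1 between 6 and 12 hpi, and that of all lncRNAs was 0.05, 0.11 and 0.07. Centring on the library median moved these fold changes by −0.05, −0.13 and −0.08, and with it the split at 12 hpi became 12 members higher and 20 lower.

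**Figure D2:**
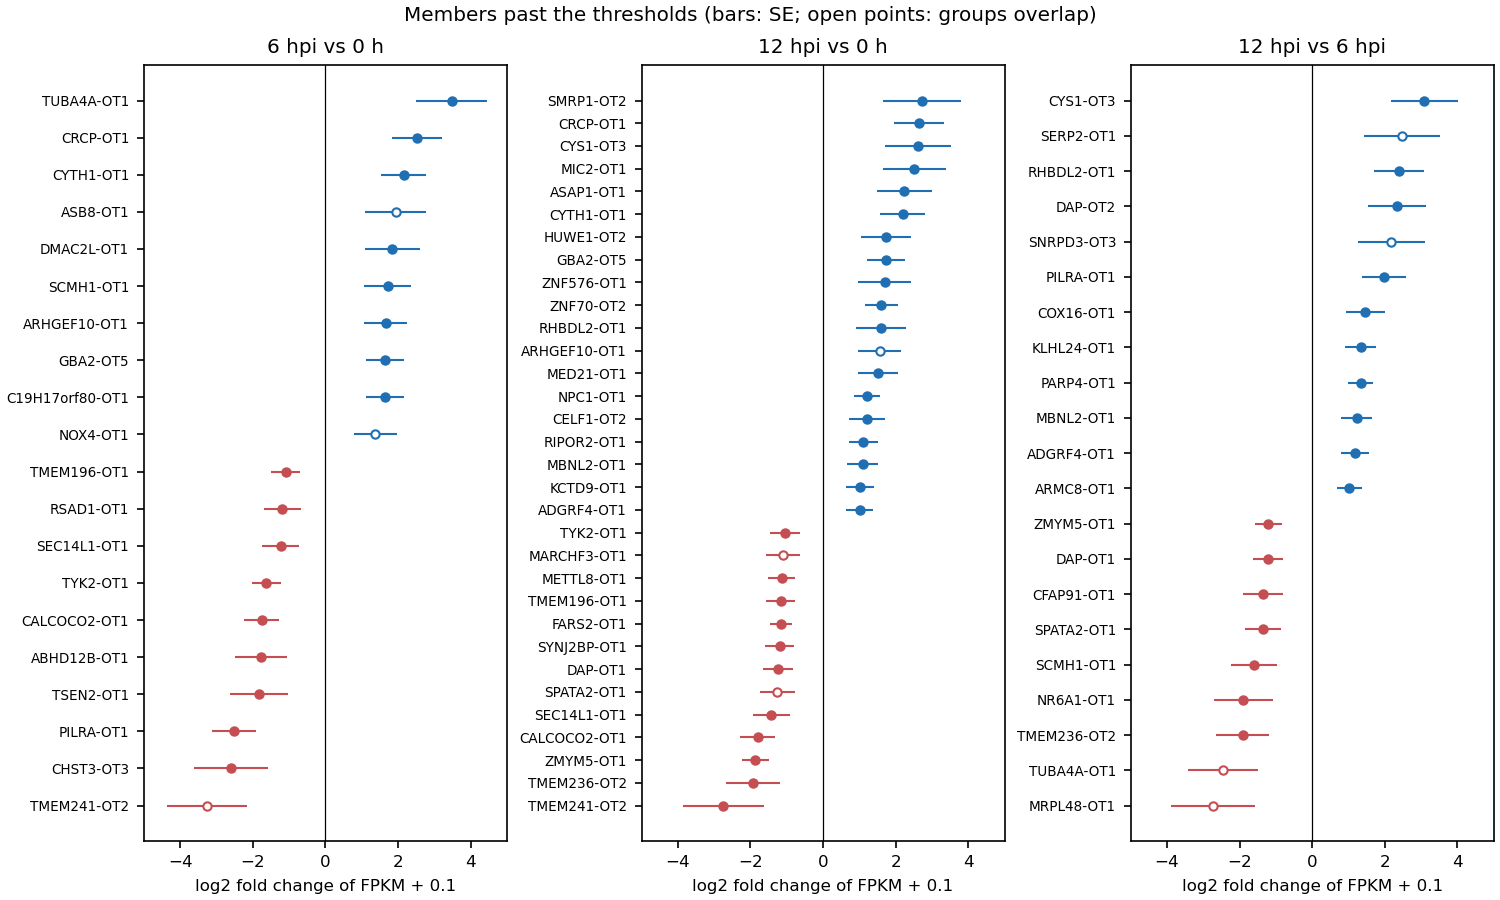
Log2 fold changes of FPKM + 0.1 (points, with bars for 1 SE) of each member past the thresholds in the 3 comparisons, blue for higher and red for lower. Open points mark members whose 2 groups of libraries overlapped, and the changes run from TUBA4A-OT1 at 3.48 to TMEM241-OT2 at −3.26, both at 6 hpi against 0 h.

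Without 0 h replicate 3, 17 members were higher at 6 hpi and 35 at 12 hpi against 0 h. CRCP-OT1 then passed the adjusted p in both comparisons (0.0334 and 0.0139 from limma). The untreated libraries left had no signal for CRCP-OT1, which met the filter through LPS-treated libraries alone. These p-values are therefore no separate support for a change. Without 0 h replicate 2, 6 members were lower at 6 hpi and 8 at 12 hpi, and 8 were lower at 12 hpi without 0 h replicate 1 or without 12 hpi replicate 1. Without 6 hpi replicate 1, 28 members were lower at 6 hpi and 20 rose between 6 and 12 hpi. Without 6 hpi replicate 2, 4 fell between 6 and 12 hpi, and without 6 hpi replicate 3, 19 rose. Without 12 hpi replicate 2, 25 were lower at 12 hpi than at 0 h and 17 fell between 6 and 12 hpi. All 9 libraries but 12 hpi replicate 3 thus moved at least 1 of the 6 counts by more than 1.5 times.

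Among the members that fell at 6 hpi without overlap, PILRA-OT1, TYK2-OT1, CALCOCO2-OT1 and TMEM196-OT1 had the smallest p. PILRA-OT1 (chr25:36114318-36138178) overlaps the gene of an inhibitory receptor of myeloid cells. It had 1.28, 0.835 and 1.48 FPKM at 0 h, 0.395, 0 and 0.124 at 6 hpi and 1.13, 0.419 and 0.96 at 12 hpi. All 6 hpi libraries were below all others, and the log2 fold change was −2.51 at 6 hpi against 0 h (standard error 0.6, adjusted p = 0.323 from limma) and 1.98 between 6 and 12 hpi (standard error 0.6, adjusted p = 0.47). A second transcript of the host, PILRA-OT3, had its highest values, 2.43 and 2.27 FPKM, in the 6 hpi libraries in which PILRA-OT1 was lowest. With both transcripts summed, the log2 fold change was −0.05 at 6 hpi and −0.01 between 6 and 12 hpi. With a pseudocount of 1 that of PILRA-OT1 was −0.91 and 0.64.

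TYK2-OT1 (chr7:14904766-14905841) overlaps the gene of the Janus kinase TYK2, which carries signals from interferon and interleukin receptors. It had 0.983, 0.965 and 0.876 FPKM at 0 h, 0.167, 0.387 and 0.19 at 6 hpi and 0.255, 0.39 and 0.625 at 12 hpi. All 6 libraries of LPS-treated cells lay below the 3 untreated ones. The log2 fold change was −1.63 at 6 hpi and −1.05 at 12 hpi, each with a standard error of 0.403. No p is given, since TYK2-OT1 met the filter mainly through the untreated libraries, its high group. At 12 hpi it passed the threshold by little, and leaving out any of 5 libraries ended the call, with values from −1.1 without 0 h replicate 3 to −0.8 without 12 hpi replicate 1. With a pseudocount of 0.5 both calls were lost (−0.96 and −0.66), and against 0 h replicate 3 alone they were lost at −1.54 and −0.96.

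CALCOCO2-OT1 (chr19:37692852-37702127) overlaps the gene of NDP52, an autophagy receptor that recognises ubiquitin-coated bacteria. It had 2.78, 3.28 and 1.09 FPKM at 0 h, 0.68, 0.768 and 0.354 at 6 hpi and 0.332, 0.848 and 0.566 at 12 hpi. The 0 h libraries were all above the rest, although replicate 3 was much nearer to the LPS-treated cells than replicates 1 and 2. The log2 fold change was −1.75 at 6 hpi (adjusted p = 0.337 from limma) and −1.8 at 12 hpi (adjusted p = 0.189), each with a standard error of 0.482. Against 0 h replicate 3 alone it was −0.82 and −0.88, short of the threshold. TMEM196-OT1, at a transmembrane protein gene, had 0.976, 1.64 and 0.727 FPKM at 0 h, 0.536, 0.335 and 0.483 at 6 hpi and 0.649, 0.395 and 0.276 at 12 hpi. It fell at both times, with log2 fold changes of −1.09 and −1.16 (adjusted p = 0.509 and 0.251 from limma). Without 0 h replicate 2 these values were −0.79 and −0.86, and the calls were also lost at −0.93 without 6 hpi replicate 2 and at −0.93 without 12 hpi replicate 3. Both were lost with a pseudocount of 0.5 (−0.73 and −0.76).

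The members that rose at 6 hpi and were still high at 12 hpi included CRCP-OT1 and CYTH1-OT1. CRCP-OT1 (chr25:27989468-27998844) overlaps the gene of a component of the CGRP receptor that is also a subunit of RNA polymerase III. It was listed at 0, 0 and 0.463 FPKM at 0 h and had 0.661, 1.21 and 0.983 at 6 hpi and 1.06, 0.6 and 1.58 at 12 hpi. The groups did not overlap, and 0 h replicate 3 was the only untreated library with signal. The log2 fold change was 2.53 at 6 hpi (adjusted p = 0.337 from limma) and 2.64 at 12 hpi (adjusted p = 0.188), each with a standard error of 0.686. CRCP-OT2, the other transcript of the host, was present in all 9 libraries at 0.543 to 1.21 FPKM. Summed over both, the log2 fold change was 0.72 at 6 hpi and 0.54 at 12 hpi. Against 0 h replicate 3 alone the values of CRCP-OT1 were 0.87 and 0.98, and with a pseudocount of 1 they were 0.77 and 0.85, so that both calls were lost.

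CYTH1-OT1 (chr19:53565765-53578895) overlaps the gene of cytohesin 1, an exchange factor for ARF GTPases. It had 0, 0.402 and 0.116 FPKM at 0 h, 1.13, 0.496 and 1.21 at 6 hpi and 1.15, 1.22 and 0.52 at 12 hpi. Untreated cells were below all LPS-treated ones, with a log2 fold change of 2.16 at 6 hpi (adjusted p = 0.339 from limma) and 2.19 at 12 hpi (adjusted p = 0.204), each with a standard error of 0.626. As with CRCP-OT1, the size of the change rested on values near 0, and with a pseudocount of 1 in place of 0.1 it was 0.72 and 0.74.

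TUBA4A-OT1 (chr2:107194902-107198203), at an alpha-tubulin gene, had the largest fold change that was higher at 6 hpi. It was listed at 0, 0.00319 and 0 FPKM at 0 h, at 0.677, 1.36 and 1.17 FPKM at 6 hpi and at 0.000224, 0 and 0.753 FPKM at 12 hpi. The 6 hpi libraries stood above the 0 h ones, while at 12 hpi 1 library had signal and the others had nearly none. This transcript met the filter mainly through the 6 hpi libraries, its high group, so no p is given. The fitted log2 fold change was 3.48 at 6 hpi (standard error 0.97), and since untreated cells were near 0 it depends on the pseudocount (1.03 with a pseudocount of 1). Between 6 and 12 hpi it fell by a log2 fold change of −2.46. This call was lost without any 1 of 4 libraries, although the values then still lay between −2.38 and −1.95. With a pseudocount of 1 it was −0.76. GBA2-OT5, at the gene of the non-lysosomal glucosylceramidase, had 0.341, 0.0491 and 0.496 FPKM at 0 h, 0.702, 1.12 and 1.11 at 6 hpi and 0.686, 1.44 and 1.09 at 12 hpi. It rose at both times, by a log2 fold change of 1.64 (adjusted p = 0.432 from limma) and 1.73 (adjusted p = 0.216), with all LPS-treated libraries above the untreated ones. Both calls were lost with a pseudocount of 0.5 (0.92 and 1.0) and against 0 h replicate 3 alone (0.83 and 0.92).

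**Figure D3:**
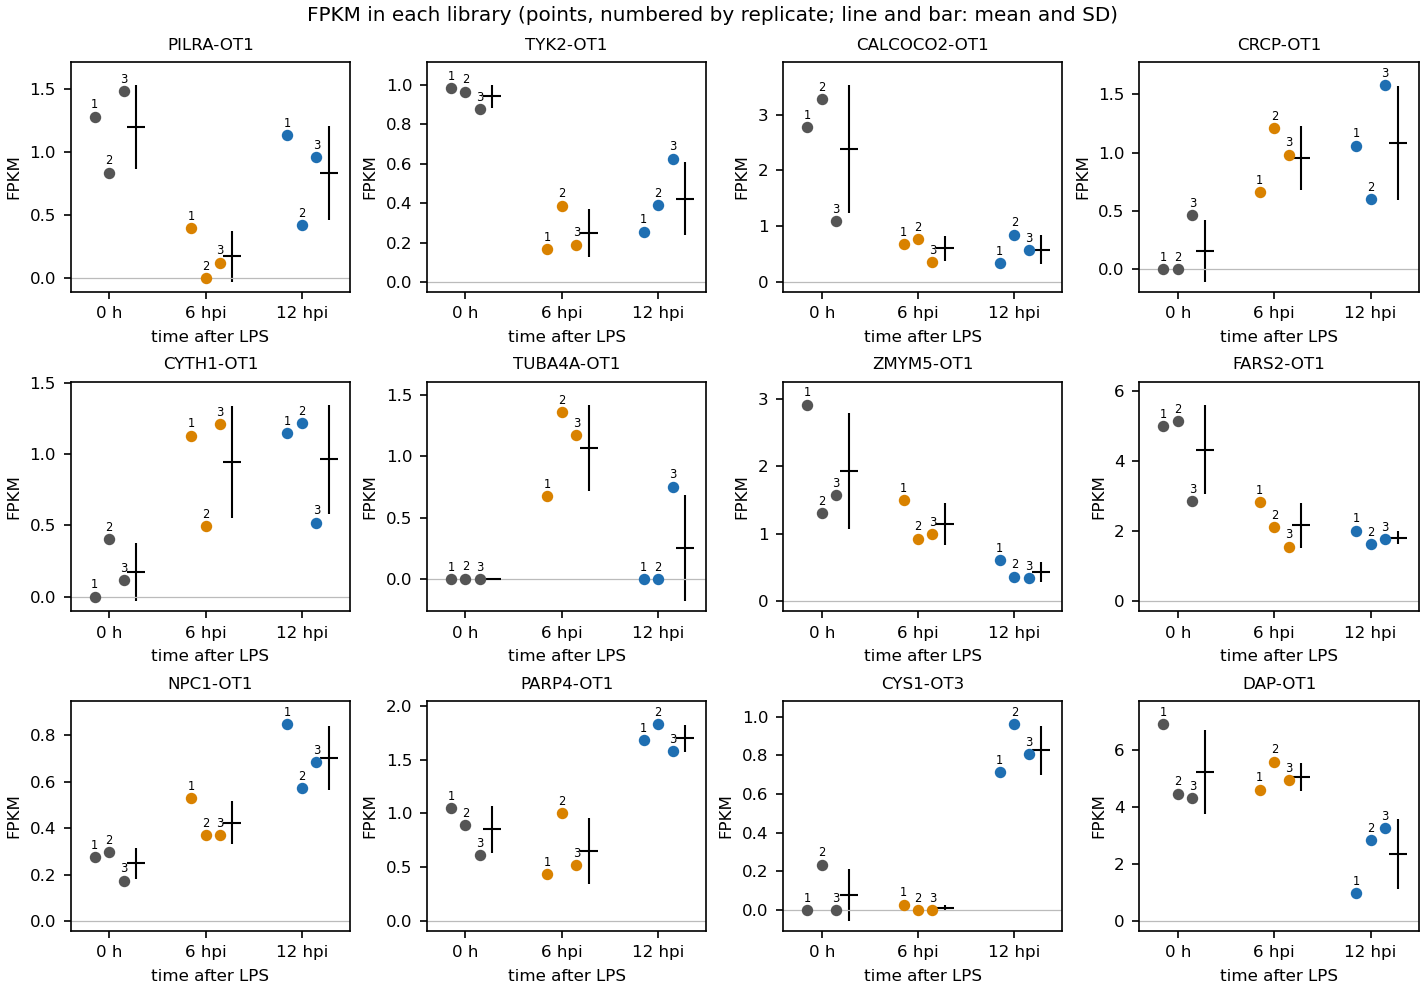
FPKM (vertical axis) of 12 members at 0 h, 6 hpi and 12 hpi, with 1 point for each library, numbered by replicate, and a line and bar for the mean and SD of 3 libraries. TYK2-OT1 and CALCOCO2-OT1 were lower in all libraries of LPS-treated cells, CRCP-OT1 and CYTH1-OT1 were higher, and PILRA-OT1 was low at 6 hpi only.

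By 12 hpi the change with the smallest p among the members was that of ZMYM5-OT1 (chr12:36235527-36235903), the shortest member at 377 bp, at the gene of an MYM-type zinc finger protein. It had 2.91, 1.31 and 1.57 FPKM at 0 h, 1.5, 0.929 and 0.993 at 6 hpi and 0.611, 0.366 and 0.34 at 12 hpi. All 12 hpi libraries were below all others, and the log2 fold change was −1.87 against 0 h (standard error 0.37, adjusted p = 0.111 from limma) and −1.21 against 6 hpi (standard error 0.37, adjusted p = 0.486). Without any single library it kept both calls. With a pseudocount of 0.5 the change from 6 to 12 hpi was −0.8 and lost its call, and with a pseudocount of 1 both were lost (−0.99 against 0 h and −0.57 against 6 hpi). PARP4-OT1 (chr12:36397568-36401020), at the gene of the vault-associated poly(ADP-ribose) polymerase, began 161664 bp further on and moved the other way. It had 1.05, 0.892 and 0.613 FPKM at 0 h, 0.433, 1.0 and 0.521 at 6 hpi and 1.68, 1.83 and 1.58 at 12 hpi, with the 12 hpi libraries above all others. Its log2 fold change was 1.33 between 6 and 12 hpi (standard error 0.339, adjusted p = 0.419 from limma), or 0.96 and short of the threshold with a pseudocount of 0.5.

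FARS2-OT1 (chr23:49391138-49509662), at the gene of mitochondrial phenylalanyl-tRNA synthetase, had 4.99, 5.13 and 2.85 FPKM at 0 h, 2.82, 2.12 and 1.56 at 6 hpi and 2.01, 1.64 and 1.78 at 12 hpi. It fell by a log2 fold change of −1.17 between 0 h and 12 hpi (standard error 0.304, adjusted p = 0.188 from limma). Here too 0 h replicate 3 was the lowest untreated library, and against it alone the value was −0.63. DAP-OT1, which spans 213568 bp at the gene of death-associated protein, a negative regulator of autophagy, had 6.89, 4.45 and 4.29 FPKM at 0 h, 4.59, 5.57 and 4.93 at 6 hpi and 0.964, 2.82 and 3.24 at 12 hpi. It was lower at 12 hpi than at 0 h by −1.25 and than at 6 hpi by −1.23 on the log2 scale (adjusted p = 0.247 and 0.545 from limma). Without 12 hpi replicate 1 these values were −0.73 and −0.71, short of the threshold, and without 0 h replicate 1 the first was −1.03 and lost its call.

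NPC1-OT1 and ZNF70-OT2 rose between 0 h and 12 hpi. NPC1-OT1 overlaps the gene of the late endosomal cholesterol transporter NPC1 and had 0.276, 0.297 and 0.173 FPKM at 0 h, 0.53, 0.37 and 0.37 at 6 hpi and 0.848, 0.572 and 0.685 at 12 hpi. The 3 time points did not overlap, and the log2 fold change at 12 hpi was 1.21 (standard error 0.363). With a pseudocount of 0.5 it was 0.68 and with 1 it was 0.44, and the call was lost. ZNF70-OT2, at a zinc finger gene, had 0.31, 0.13 and 0.668 FPKM at 0 h, 0.486, 0.601 and 0.716 at 6 hpi and 1.56, 0.806 and 1.28 at 12 hpi. Its log2 fold change at 12 hpi was 1.61 (standard error 0.463, adjusted p = 0.204 from limma), and that of the 3 transcripts of ZNF70 summed was 0.7. For ZNF70-OT2 the call was also lost against 0 h replicate 3 alone (0.73) and with a pseudocount of 0.5 (1.0).

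CYS1-OT3 and RHBDL2-OT1 were above 0.5 FPKM at 12 hpi alone, the time point through which they entered the fit, and are described without a test. CYS1-OT3 is at the gene of cystin, a protein of the ciliary membrane. It was listed at 0, 0.234 and 0 FPKM at 0 h, at 0.0265, 0 and 0 FPKM at 6 hpi and at 0.711, 0.961 and 0.804 FPKM at 12 hpi. The fitted log2 fold change was 3.09 against 6 hpi and 2.62 against 0 h, or 0.85 and 0.76 with a pseudocount of 1. Against 0 h it was 2.52 to 2.71 without any 1 of the 12 hpi libraries. RHBDL2-OT1, at the gene of a rhomboid protease that cuts proteins within the membrane, had 0.114, 0.491 and 0.342 FPKM at 0 h, 0.0991, 0 and 0.449 at 6 hpi and 0.795, 1.77 and 0.843 at 12 hpi. The 12 hpi libraries were above the rest, with a log2 fold change of 2.39 against 6 hpi and of 1.6 against 0 h. Without 1 library the second value was 1.19 at the lowest (without 0 h replicate 1) and 0.98 with a pseudocount of 0.5.

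SPATA2-OT1 and TMEM236-OT2 fell between 6 and 12 hpi. SPATA2, which joins the deubiquitinase CYLD to the linear ubiquitin ligase in TNF receptor signalling, is the host of SPATA2-OT1. This transcript had 0.312, 0.993 and 0.841 FPKM at 0 h, 0.54, 0.878 and 0.729 at 6 hpi and 0.177, 0.125 and 0.396 at 12 hpi. Its log2 fold change was −1.36 against 6 hpi (standard error 0.486, adjusted p = 0.59 from limma) and −1.26 against 0 h (standard error 0.486, adjusted p = 0.292), where 1 library at 0 h lay within the range of 12 hpi. Each of these calls was lost without any 1 of 4 libraries, 12 hpi replicates 1 and 2 among them, with values from −1.33 to −1.12 against 6 hpi and from −1.17 to −0.99 against 0 h. With a pseudocount of 0.5 they were −0.74 and −0.7. TMEM236-OT2 had 0.577, 0.575 and 0.448 FPKM at 0 h, 1.91, 0.264 and 0.238 at 6 hpi and 0, 0.132 and 0.0947 at 12 hpi. Its level at 6 hpi rested on replicate 1, without which the log2 fold change between 6 and 12 hpi was −1.09 instead of −1.92 and did not pass. Without 12 hpi replicate 1 it was −1.56 and did not pass either, nor did it with a pseudocount of 0.5 (−0.95).

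In all, 53 of the 520 tested members (10.2%) passed the thresholds in at least 1 comparison, against 15.5% of all tested lncRNAs. Without those above 0.5 FPKM at 1 time point alone it was 48 members (9.34%, against 14.6%). The comparisons at 6 and 12 hpi share their untreated libraries. Members past the thresholds in both were CRCP-OT1, CYTH1-OT1, GBA2-OT5 and ARHGEF10-OT1, which rose, and CALCOCO2-OT1, TYK2-OT1, TMEM196-OT1, SEC14L1-OT1 and TMEM241-OT2, which fell. ARHGEF10-OT1 had 0.112, 0.272 and 0.0338 FPKM at 0 h, 0.382, 0.991 and 0.54 at 6 hpi and 0.258, 0.883 and 0.667 at 12 hpi. Its log2 fold changes were 1.66 and 1.56 (adjusted p = 0.509 and 0.282 from limma), and the 12 hpi range overlapped 0 h. Without 0 h replicate 3 they were 1.31 and 1.2 and did not pass, nor did they with a pseudocount of 0.5 (0.81 and 0.76). The first was also lost without 6 hpi replicate 2 (1.34), and the second without 0 h replicate 1 (1.53), 12 hpi replicate 2 (1.26) or 12 hpi replicate 3 (1.43). SEC14L1-OT1, at the gene of a protein with a SEC14 lipid-binding domain and above 0.5 FPKM at 0 h alone, had 1.9, 0.563 and 0.56 FPKM at 0 h, 0.282, 0.415 and 0.246 at 6 hpi and 0.171, 0.386 and 0.246 at 12 hpi. Its fold changes of −1.23 and −1.42 rested on 0 h replicate 1, without which they were −0.7 and −0.89. The first was −1.18 without 6 hpi replicate 1 and −1.11 without 6 hpi replicate 3, and the second was −1.22 without 12 hpi replicate 1. TMEM241-OT2, named here after its values were seen, had 0.819, 4.02 and 2.64 FPKM at 0 h, 1.09, 0 and 0 at 6 hpi and 0.452, 0 and 0.523 at 12 hpi.

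The order of the means over the 3 time points was spread over all 6 possible orders. A mean that was lowest at 0 h and highest at 12 hpi was found for 122 of the 520 tested members (23.5%, against 24.2% of all tested lncRNAs). The reverse order was found for 91 (17.5%, against 16.9%). The other 4 orders held 67 to 90 members each.

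Hosts of the TLR4, NF-kB and inflammation list, which LPS acts on most directly, were few, and 1 of their transcripts changed. The list holds 6 members, of which 5 were tested, and 1 of the 5 fell at 6 hpi and at 12 hpi, TYK2-OT1. Over all tested lncRNAs 2.31% were lower at 6 hpi and 3.23% at 12 hpi. The median log2 fold change of the 5 tested list members was 0.19 at 6 hpi, −0.26 at 12 hpi and 0.47 between 6 and 12 hpi. IRAK3-OT1, at the gene of a kinase-like protein that restrains Toll-like receptor signalling, had 0.657, 1.23 and 1.26 FPKM at 0 h, 0.319, 0.207 and 1.07 at 6 hpi and 0.771, 0.744 and 0.466 at 12 hpi. Its log2 fold change at 6 hpi was −1.06 (standard error 0.514, adjusted p = 0.542 from limma), and the groups overlapped through 6 hpi replicate 3. NOD1-OT1, at the gene of a cytosolic sensor of bacterial peptidoglycan, had 0.373, 0 and 0.628 FPKM at 0 h, 0.867, 1.03 and 1.22 at 6 hpi and 0, 0.971 and 0.516 at 12 hpi. The 6 hpi libraries were above the 0 h ones, with a change of 1.79 on the log2 scale (standard error 0.955, adjusted p = 0.595 from limma).

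IRF2-OT1, at an interferon regulatory factor gene, had 0.448 ± 0.175 FPKM at 0 h, 0.509 ± 0.046 at 6 hpi and 0.75 ± 0.135 at 12 hpi (SD, n = 3). TNFAIP1-OT1, at a TNF-induced adaptor of a ubiquitin ligase, varied from 0.0126 to 1.39 FPKM within and between groups. TNFRSF17-OT1, at the gene of the plasma cell receptor BCMA, had 0.497, 0.527 and 0.577 FPKM at 0 h and at most 0.482 FPKM in LPS-treated cells, but passed the filter in too few libraries to be tested. Of these 5, the 4 that were tested had no change past the thresholds, and the 5 were named after their values were seen, as the rest of the list.

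**Figure D4:**
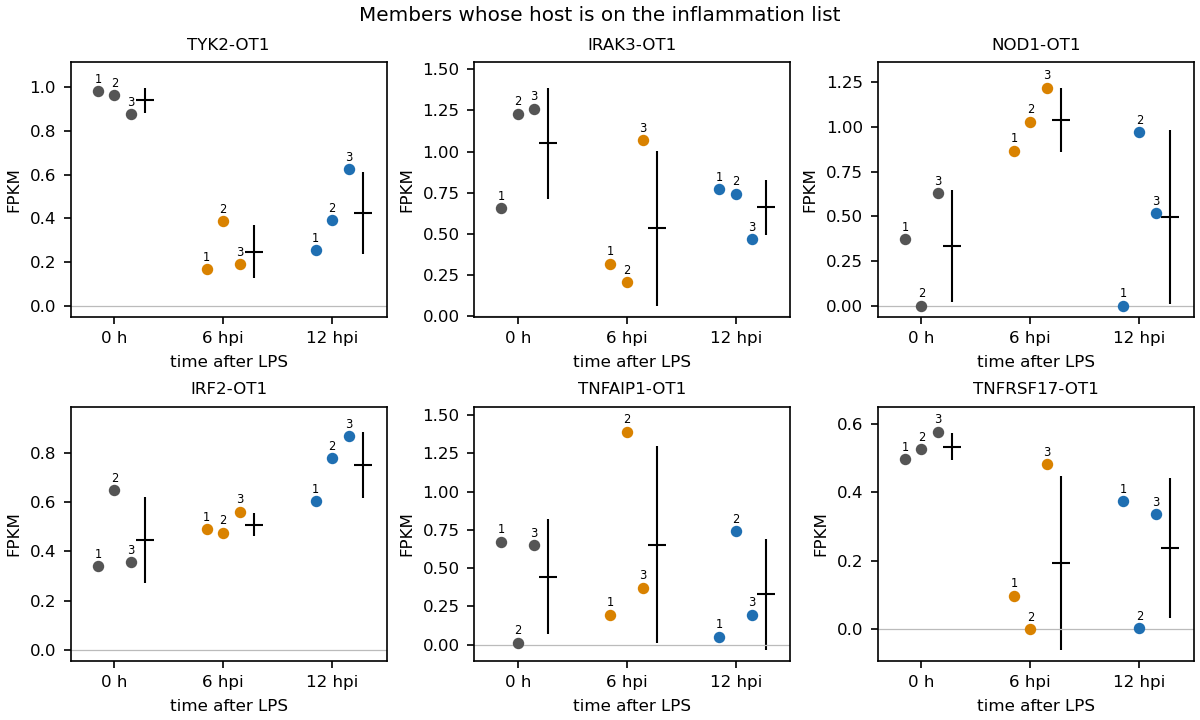
FPKM (vertical axis) of the 6 members whose host is on the inflammation list at 0 h, 6 hpi and 12 hpi, with numbered points for the 3 libraries of a time point and a line and bar for their mean and SD. The libraries of LPS-treated cells lie below those of untreated cells for TYK2-OT1 and TNFRSF17-OT1, and the groups overlap in at least 1 comparison for the other 4.

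In the other lists reported here the members past the thresholds were few and went both ways. Of 36 tested members at hosts of the ubiquitin and proteasome system, ASB8-OT1 rose at 6 hpi (log2 fold change 1.94), HUWE1-OT2 rose (1.73) and MARCHF3-OT1 fell (−1.11) at 12 hpi, and KLHL24-OT1 rose between 6 and 12 hpi (1.34). ASB8, HUWE1, MARCHF3 and KLHL24 all encode ubiquitin ligases or their substrate adaptors. The median log2 fold changes of the 36 were −0.08, 0.04 and 0.05. Of 19 tested members at genes of RNA processing and translation, 2 rose and 2 fell at 12 hpi against 0 h. MBNL2-OT1, at a regulator of alternative splicing, had 1.66, 2.42 and 3.44 FPKM at 0 h, 2.95, 1.03 and 3.27 at 6 hpi and 4.85, 5.22 and 5.62 at 12 hpi, and rose by 1.09 against 0 h and 1.23 against 6 hpi on the log2 scale. SNRPD3-OT3, at the gene of a core protein of the spliceosome, also rose from 6 to 12 hpi, by 2.18 on the log2 scale. CELF1-OT2, at another splicing regulator, rose by 1.21, while FARS2-OT1 and METTL8-OT1, at the gene of a tRNA methyltransferase, fell by 1.17 and 1.14 on the log2 scale.

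Zinc finger hosts had 18 tested members, of which ZNF70-OT2 and ZNF576-OT1 (1.7) rose at 12 hpi and 0 fell. Over all tested lncRNAs 6.37% were higher and 3.23% lower at that time. Hosts of chromatin and the transcription machinery had 14 tested members, of which MED21-OT1, at a Mediator subunit, rose at 12 hpi (log2 fold change 1.52). Its values were 0.729, 2.68 and 4.08 FPKM at 0 h, 2.58, 2.41 and 3.69 at 6 hpi and 9.19, 4.18 and 5.58 at 12 hpi. The 0 h level was thus pulled down by replicate 1. Membrane trafficking and autophagy had 16 tested members. Of them SEC14L1-OT1, which entered the fit through its 0 h libraries alone, fell at both times. The median log2 fold changes over the list were 0.12, 0.47 and 0.48, beside 0.05, 0.11 and 0.07 over all lncRNAs.

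CHST3-OT3 (a chondroitin sulfotransferase host) on the list of 13 tested mitochondrial and metabolic members was listed at 0 in the 3 libraries taken at 6 hpi and had 0.636, 0.5 and 0.402 FPKM at 0 h. On the same list COX16-OT1 rose between 6 and 12 hpi and MRPL48-OT1, at a mitochondrial ribosome gene, fell. For the 7 tested members at cell cycle and repair genes the change was that of PARP4-OT1. The 10 tested transporter and channel members, the 4 of Notch, Wnt, TGF-beta and Hippo signalling and the 2 of MAPK and growth factor signalling had 0 changes in the 3 comparisons. The members of these lists that are not named elsewhere were given for the list they belong to, after their values were seen. Their fold changes are given without left-out libraries or other alternatives, so how far they depend on single libraries is not shown.

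Most hosts, 457 of 527, had 1 member, and 70 hosts had at least 2, together 161 members. Transcripts of the same host lay over each other, since 115 of their 121 pairs overlapped, 57 had the same start, 61 the same end and 26 both. In these hosts the single transcripts varied more than their sum. The median coefficient of variation was 63.8% for single transcripts and 32.3% for the sum of all sense overlapping transcripts of a host, and the sum varied less than the median transcript at 70 of the 70 hosts. A sum of unrelated values also varies less than its parts. Within time points, the variance of the sum was below the summed variances of the transcripts at 41 of the 70 hosts, and less than 0.5 of them at 21, with a median ratio of 0.871, where 1 would mean that the transcripts vary independently.

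Opposite values of transcripts of 1 host were seen in single libraries. SVBP, the partner of the vasohibin enzymes that remove tyrosine from tubulin, had 5 members. SVBP-OT3 had between 3.98 and 8.43 FPKM in 8 libraries and was listed at 0 in 12 hpi replicate 1. In that same library SVBP-OT7 had 6.16 FPKM, and in the other 8 it had at most 0.201 FPKM. Summed over all transcripts of SVBP, 12 hpi replicate 1 had 27.5 FPKM, within the range of the other libraries (16.4 to 36.2). SVBP-OT2, SVBP-OT4 and SVBP-OT6 averaged 1.86, 3.01 and 3.82 FPKM, and none of the tested SVBP members changed.

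C6orf52 had 4 members that begin within a few bases of each other on chromosome 23 and end at the same base (starts 45428692, 45428698, 45428702 and 45428706, end 45443355). C6orf52-OT4 had 10 FPKM in 6 hpi replicate 2 and 0.78 to 5.31 FPKM elsewhere. C6orf52-OT1, which is above the limit of 10 FPKM and so not a member, was at its lowest in that library (6.52 FPKM, against 12.5 to 17.7 in the others). C6orf52-OT5 was above 0 in 6 hpi replicate 3 (4.84 FPKM) and 12 hpi replicate 1 (1.36 FPKM) only, C6orf52-OT3 in 3 libraries and C6orf52-OT2 in 6. Their sum had a coefficient of variation of 11.8%, with 18.1 to 25 FPKM in the 9 libraries.

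CD99 and SMIM18 were chosen for display after their values were seen. CD99-OT1 and CD99-OT2 have the same start and end on the X chromosome, at the gene of a cell surface protein of leukocyte migration. CD99-OT1 had 6 to 9.11 FPKM in 8 libraries and 0.746 FPKM in 12 hpi replicate 1, where CD99-OT2 reached its highest value, 7.13 FPKM. SMIM18-OT1 had 2.31 to 3.84 FPKM in 8 libraries and was listed at 0 in 12 hpi replicate 1, and SMIM18-OT2 was listed at 3.33 FPKM there and at 0 in the other 8. The sums of both hosts, 7.87 and 3.33 FPKM in that library, were near or within the range of the other libraries (8.56 to 12.9 and 2.31 to 3.84 FPKM).

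**Figure D5:**
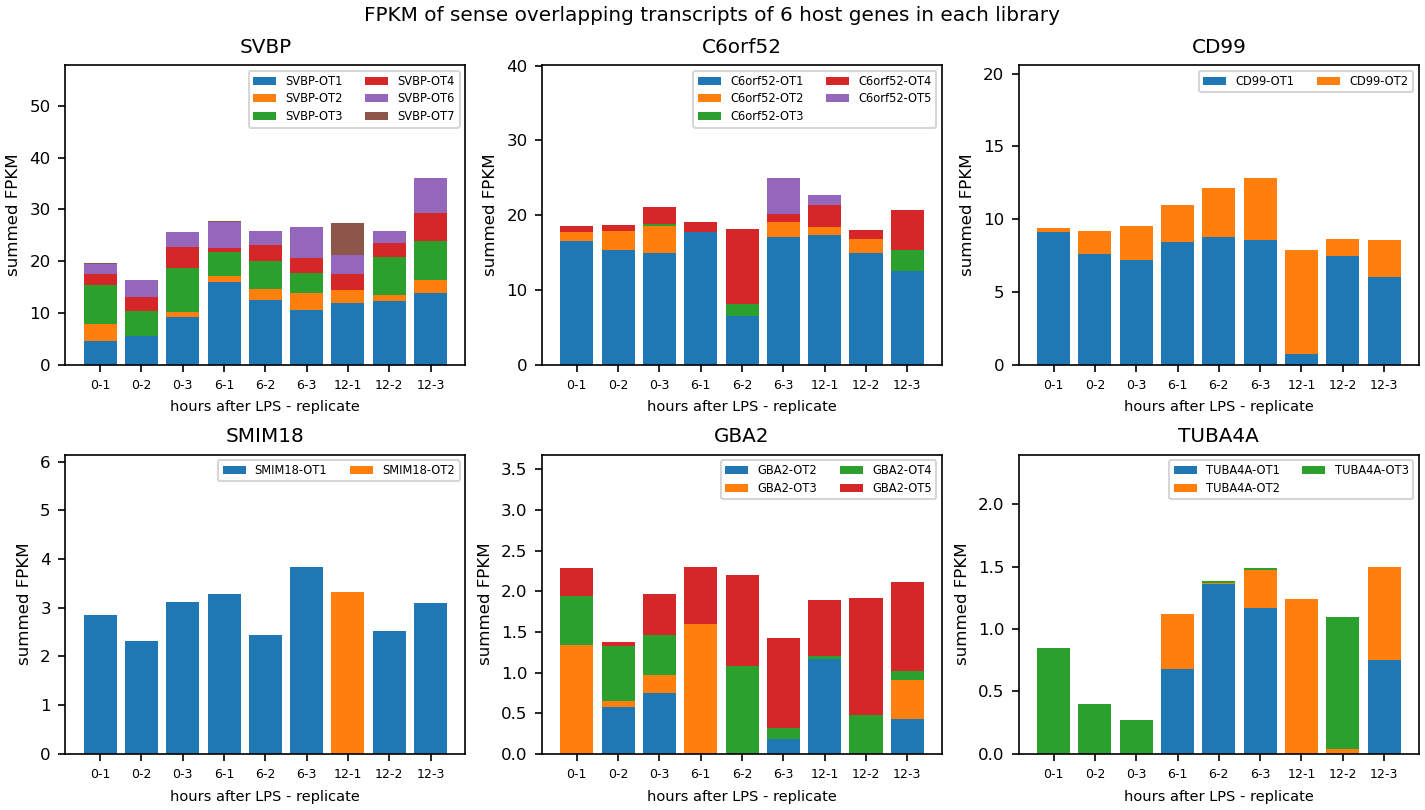
Summed FPKM (vertical axis, from 0) of the sense overlapping transcripts of 6 host genes in each library, labelled by hours after LPS and replicate, with 1 colour for each transcript. The bars of C6orf52, CD99 and SMIM18 have similar heights while the colours change, and in 12 hpi replicate 1 SMIM18-OT2 stands in the place of SMIM18-OT1.

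Where members of a host changed with time, their sum often changed less. At GBA2 the rise of GBA2-OT5 was not seen in the sum of its 4 members, whose log2 fold change was 0.07 at 6 hpi and 0.1 at 12 hpi. GBA2-OT3 had 1.34 and 1.6 FPKM in 0 h replicate 1 and 6 hpi replicate 1 and at most 0.482 FPKM elsewhere, GBA2-OT4 was at 0.591 ± 0.0906 FPKM in untreated cells and 0.21 ± 0.233 at 12 hpi (SD, n = 3), and GBA2-OT2 exceeded 0.5 FPKM in 3 libraries. At DAP the transcripts passed the thresholds in opposite directions between 6 and 12 hpi. DAP-OT2 had 0.113, 0.857 and 1.95 FPKM at 0 h, 0.131, 0.163 and 0.203 at 6 hpi and 2.26, 1.55 and 0.511 at 12 hpi, and rose by 2.34 from 6 to 12 hpi on the log2 scale (standard error 0.798, adjusted p = 0.545 from limma), while DAP-OT1 fell. Without 12 hpi replicate 1 both calls were lost (1.93 for DAP-OT2), and without 12 hpi replicate 2 that of DAP-OT2 (2.18). The sum of the pair differed by −0.45 on the log2 scale.

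At TUBA4A too the sum of the 3 members changed less than TUBA4A-OT1. The log2 fold change of the sum was 1.34 at 6 hpi (3.48 for TUBA4A-OT1) and −0.05 between 6 and 12 hpi (−2.46). At 0 h nearly all of its signal was on TUBA4A-OT3 (0.851, 0.397 and 0.271 FPKM), which at 6 hpi was at most 0.0163 FPKM. TUBA4A-OT2 was listed at 0 in the 3 untreated libraries, at 0.448, 0.00867 and 0.306 FPKM at 6 hpi and at 1.24, 0.0387 and 0.747 FPKM at 12 hpi. In 12 hpi replicate 2 TUBA4A-OT3 was back at 1.06 FPKM, and it was at 0 in the other libraries of 12 hpi. TUBA4A-OT2 and TUBA4A-OT3 were not tested.

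The members of TSPAN18 and RNF4 showed no change past the thresholds. TSPAN18, a tetraspanin gene, had 5 members, of which TSPAN18-OT3 was the most abundant (1.48 ± 0.244 FPKM at 0 h, 0.986 ± 0.287 at 6 hpi and 0.993 ± 0.349 at 12 hpi, SD, n = 3) and TSPAN18-OT1 was next (mean 0.68 FPKM). TSPAN18-OT2 had 0.698 and 0.897 FPKM in 0 h replicates 1 and 2 and was listed at 0 in the other 7 libraries. TSPAN18-OT5 and TSPAN18-OT7 averaged 0.283 and 0.306 FPKM. RNF4, a ubiquitin ligase that recognises SUMO chains, had 4 members with means of 0.643 to 0.777 FPKM, and their sum ran from 1.4 to 5.17 FPKM, with the ratio of variances at 1.63, so that these transcripts tended to be high together.

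Members listed at 0 in all 3 libraries of a time point numbered 8 for 0 h, 7 for 6 hpi and 9 for 12 hpi. Together they were 17 members. Of the 17, 4 were above 0 in 1 library only and another 4 in 2 libraries. None of them (0 of 17) was above 0.5 FPKM in all 3 libraries of another time point, and 4 were above 0 in all 3, CHST3-OT3, LYRM9-OT1, TUBA4A-OT2 and ZNF132-OT1, named after their values were seen. ZNF132-OT1 had 0.836, 0.316 and 0.472 FPKM at 0 h and was listed at 0.0918, 0 and 0 at 6 hpi and at 0 in the 3 libraries of 12 hpi. LYRM9-OT1 was listed at 0 in the untreated libraries, had 1.09, 0.446 and 0.195 FPKM at 6 hpi and was above 0 in 1 library of 12 hpi.

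The 4 members with signal in 1 library were AFF1-OT2 (5.88 FPKM in 6 hpi replicate 2), POP1-OT1 (3.92 FPKM in 6 hpi replicate 1), RNF185-OT1 (4.66 FPKM in 0 h replicate 2) and SMIM18-OT2 (3.33 FPKM in 12 hpi replicate 1). Their means over a time point, 1.11 to 1.96 FPKM, each rested on a single library, and the SD exceeded the mean. More than 0.5 of the FPKM summed over the 9 libraries was in a single library for 35 members, of which 2 were tested. Each of the 9 libraries was that library for at least 1 member, with 1 in 0 h replicate 3 and 7 in 6 hpi replicate 1. A 0 in these values can be a failed estimate, and presence or absence at a time point was not tested.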

How the data were processed

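RNA of MAC-T cells, depleted of ribosomal RNA, was sequenced in 9 stranded libraries. Per the study's methods, HISAT2 mapped the reads and Cuffmerge joined the transcripts. Those with more than 1 exon, a level above 0.5 FPKM and no coding potential were taken as lncRNAs, and StringTie gave their levels. The submitters' notes also name Cuffdiff 2.1.1, DESeq 1.10.1 and the build ARS-UCD1.2. The authors deposited lncRNA values as FPKM. Fragment counts were not used here. The circRNA tables were not used, since their entries carry no host gene.

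With R 4.3.3 and limma 3.58.1, log2(FPKM + 0.1) of lncRNAs above 0.5 FPKM in at least 3 libraries was fitted over all 9 libraries with a trend, and tests were two-sided. The script was tested on simulated data. Deviations of same-numbered libraries correlated at −0.0754 to 0.0728, so libraries were not paired. The members, the gene lists (by host symbol, with patterns corrected after values were seen) and the naming rule were chosen with earlier results of these data known. Members were named by smallest p in each direction among those past the thresholds without overlap, highest level, steadiness, most members per host, opposite changes within a host, list membership, primers, and presence at 1 time point with 0 at another, which named 0 members. Others are marked where they appear. The result of 1 gene list is not reported here. Alternatives were pseudocounts, filters, scalings, a replicate block, left-out libraries and sums per host.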

Additional observations from a re-analysis of the deposited data

Results flagged for a closer look

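For TRIQK-OT1 and ANXA11-OT3 the 3 libraries of 6 hpi lay below those of 0 h and the 3 libraries of 12 hpi lay above them, so that the differences from 0 h had opposite signs at the 2 times. TRIQK-OT1 had 0.337, 0.243 and 0.417 FPKM at 0 h, 0.224, 0.171 and 0 at 6 hpi and 0.823, 0.48 and 0.63 at 12 hpi, a mean difference between 12 and 6 hpi of 0.513 FPKM. It passed the filter in too few libraries, and the difference was not tested. ANXA11-OT3 had 1.29, 1.27 and 1.18 FPKM at 0 h, 1.1, 0.751 and 1.0 at 6 hpi and 2.09, 1.78 and 1.59 at 12 hpi, a mean difference between 12 and 6 hpi of 0.868 FPKM. Its log2 fold change between 12 and 6 hpi, which tests the difference of the effects, was 0.87 (adjusted p = 0.462 from limma), under the fold change required.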

How the results depend on the processing

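The counts of members past the thresholds, given as higher and lower at 6 hpi, higher and lower at 12 hpi, and higher and lower between 6 and 12 hpi, were 10, 10, 19, 13, 12 and 9. A pseudocount of 0.5 gave 4, 6, 10, 5, 7 and 3, and a pseudocount of 1 gave 1, 3, 3, 2, 0 and 0. Without a filter 23 were lower at 6 hpi, as with a filter on time point means. With median centring 12 were higher and 20 lower at 12 hpi, and with quantile normalization 21 were lower. Without 0 h replicates 1 and 2 together, where the lone untreated library is assumed to vary like the other groups, 3 were lower at 6 hpi and 5 at 12 hpi. Leaving out each library in turn gave 7 to 17, 6 to 28, 14 to 35, 8 to 25, 10 to 20 and 4 to 17, and 0 to 2 at an adjusted p under 0.05, the 2 being CRCP-OT1 in both comparisons without 0 h replicate 3. CRCP-OT1 then had no signal in the untreated libraries left, and it met the filter through LPS-treated libraries alone. The cause of the shifts in these counts was not tested. The replicate block left the counts within 1.5 times and shared 16, 28 and 19 calls with the fit without it. Of 37 calls of named members, 1 held under all alternatives run (TUBA4A-OT1 at 6 hpi, from 1.03 to 4.4) and 20 without each library in turn, 34 were lost with a pseudocount of 1, 20 with 0.5, 18 without 0 h replicates 1 and 2, 12 when summed per host and 2 with the block (RHBDL2-OT1 at 12 hpi and SEC14L1-OT1 at 6 hpi). The 37 include calls of CYS1-OT3, RHBDL2-OT1 and SEC14L1-OT1, which entered the fit through their high group alone and are described without a test. TUBA4A-OT1 met the filter mainly through its 6 hpi libraries. Summed per host, DAP-OT2 turned from 2.34 to −0.45 and PILRA-OT1 from 1.98 to −0.01 between 6 and 12 hpi. Since most members are under 1 FPKM and their fragments are not known, small differences could not be resolved.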
